A study of Mus musculus with 6 samples.

Results

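The tumour necrosis factor (TNF) superfamily and its receptors were examined in mouse bone marrow cells that carried the leukaemia oncogene MN1 (meningioma 1). The members were the genes whose symbols start with Tnfsf or Tnfrsf and a digit, with 13 further family genes that have other names: Tnf, Lta, Ltb, Fasl, Cd40lg, Cd70, Eda, Ltbr, Fas, Cd27, Cd40, Edar and Ngfr. Of 19938 genes named by a single symbol on the array, 42 met this rule, 16 of them ligands and 26 receptors. Each member was measured by 1 probe set. A further probe set carried the symbols of several family members (Tnfsfm13, Tnfsf13 and Tnfsf12) and was left out.

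Bone marrow cells had been transduced with a retrovirus (MSCV, murine stem cell virus) carrying MN1 and a fluorescent reporter, or with the same kind of vector carrying the reporter alone, called the empty vector here. All cells therefore carried a retroviral vector, and those expressing the reporter had been isolated by flow sorting at 72 hours. The labels name GFP as the reporter in both groups, while the series' design text names YFP in the MN1 vector. Total RNA was hybridised to 1-colour whole-transcript arrays, 3 with MN1 and 3 with the empty vector, from 3 independent experiments per the design text. No strain or age of the mice could be taken from the labels or the design text, and the sorted cells were a mixture of marrow cell types defined by the reporter alone. In such bulk samples, fewer cells of a type and less RNA per cell cannot be told apart.

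TNF family ligands are mostly membrane-bound trimers on immune cells, some of which are cut off the cell surface by proteases. Their receptors fall into those with a death domain, which can start apoptosis or necroptosis, those that recruit TRAF adaptors to activate NF-kappa-B and MAP kinases, and decoys that bind ligand without passing on a signal. In bone marrow the family is known for controlling myelopoiesis, B-cell survival, osteoclast formation and the killing of damaged progenitors.

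Promoter sequences are shown for 2 neighbouring ligand genes of the family on mouse chromosome 17, Ltb and Tnf, because Ltb had the largest negative difference of the family and Tnf is its founding member. Each is the 250 bases before the RefSeq transcription start in assembly GRCm38.p6, written 5′ to 3′ along the gene's strand. Ltb lies on the plus strand, with this window at chr17:35194257-35194506, and Tnf on the minus strand, with its window at chr17:35202008-35202257. Capitals mark GAAAGTCCC in Ltb, the reverse complement of the NF-kappa-B motif GGGACTTTC, whose first base lies 86 bases before the start, and the TATA box TATAAA in Tnf, whose first base lies 29 bases before the start.
Ltb: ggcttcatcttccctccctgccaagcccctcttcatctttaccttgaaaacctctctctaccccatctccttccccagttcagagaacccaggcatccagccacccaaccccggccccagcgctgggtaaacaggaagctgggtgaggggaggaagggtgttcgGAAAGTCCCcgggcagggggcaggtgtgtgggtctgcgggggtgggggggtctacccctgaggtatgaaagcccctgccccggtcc
Tnf: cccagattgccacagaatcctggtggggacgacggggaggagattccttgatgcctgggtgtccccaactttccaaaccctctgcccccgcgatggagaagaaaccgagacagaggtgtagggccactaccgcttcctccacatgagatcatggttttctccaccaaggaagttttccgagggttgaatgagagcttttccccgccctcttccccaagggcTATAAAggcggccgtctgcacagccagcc
Both strands of these windows were searched for 33 members with a RefSeq entry, which had 37 windows in all. GGGACTTTC was found in Ltb alone among these 33 members, and in 0.289% of 32851 windows of the same length over all genes. TATAAA was found in 6 members (Lta, Tnf, Tnfrsf17, Tnfrsf23, Tnfsf11 and Tnfsf18) and in 12.4% of all windows. The AP-1 motif TGANTCA was found in 5 members (Fas, Tnfrsf8, Tnfrsf9, Tnfsf13b and Tnfsf14) and in 6.75% of all windows. Only the motifs as written were searched, so NF-kappa-B sites with other letters were not counted in any member. A match describes these letters only, and no binding was measured here.

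No member of the family passed the test between MN1 and the empty vector after adjustment. The smallest adjusted p among the members was 0.584 (limma, Benjamini-Hochberg over all 19938 genes), and 0 of all genes (0%) passed an adjusted p of 0.05. Differences are given as log2 expression with MN1 minus log2 expression with the empty vector, with limma's standard error (SE). The largest positive differences were for Tnfsf9 (4-1BB ligand) at 0.96 ± 0.63 and Cd27 at 0.82 ± 0.50, and the largest negative ones for Ltb (lymphotoxin beta) at -0.88 ± 0.45 and Tnfsf13b (BAFF) at -0.60 ± 0.20. Differences of at least 0.5 in either direction were present in 6 members (14.3%), against 6.40% of all genes, and none reached 1. The range within at least 1 group was wider than the difference between groups in 39 of the 42 members (92.9%), near the 91.8% of all genes.

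By direction, 15 members had a difference above 0 and 27 below, a share of 35.7% above 0 where 43.3% of all genes were above 0. The median difference was -0.06 over the members and -0.03 over all genes. At an unadjusted p under 0.05 in limma there was 1 member higher with MN1 (Tnfrsf4), where 4.17% of all genes were called, and 2 lower (Tnfsf13b and Tnfrsf25), where 4.23% were called. Centring the arrays on their medians turned the split of unadjusted calls over all genes from 832 higher and 843 lower to 977 higher and 400 lower. The 3 MN1 arrays lay all above the 3 empty vector arrays for 2 members, against 5.71% of all genes, and all below for 5 members, against 10.3% of all genes. Both directions together gave 16.7% of the members and 16.0% of all genes, so the family's share of separated groups was near the background.

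**Figure D1:**
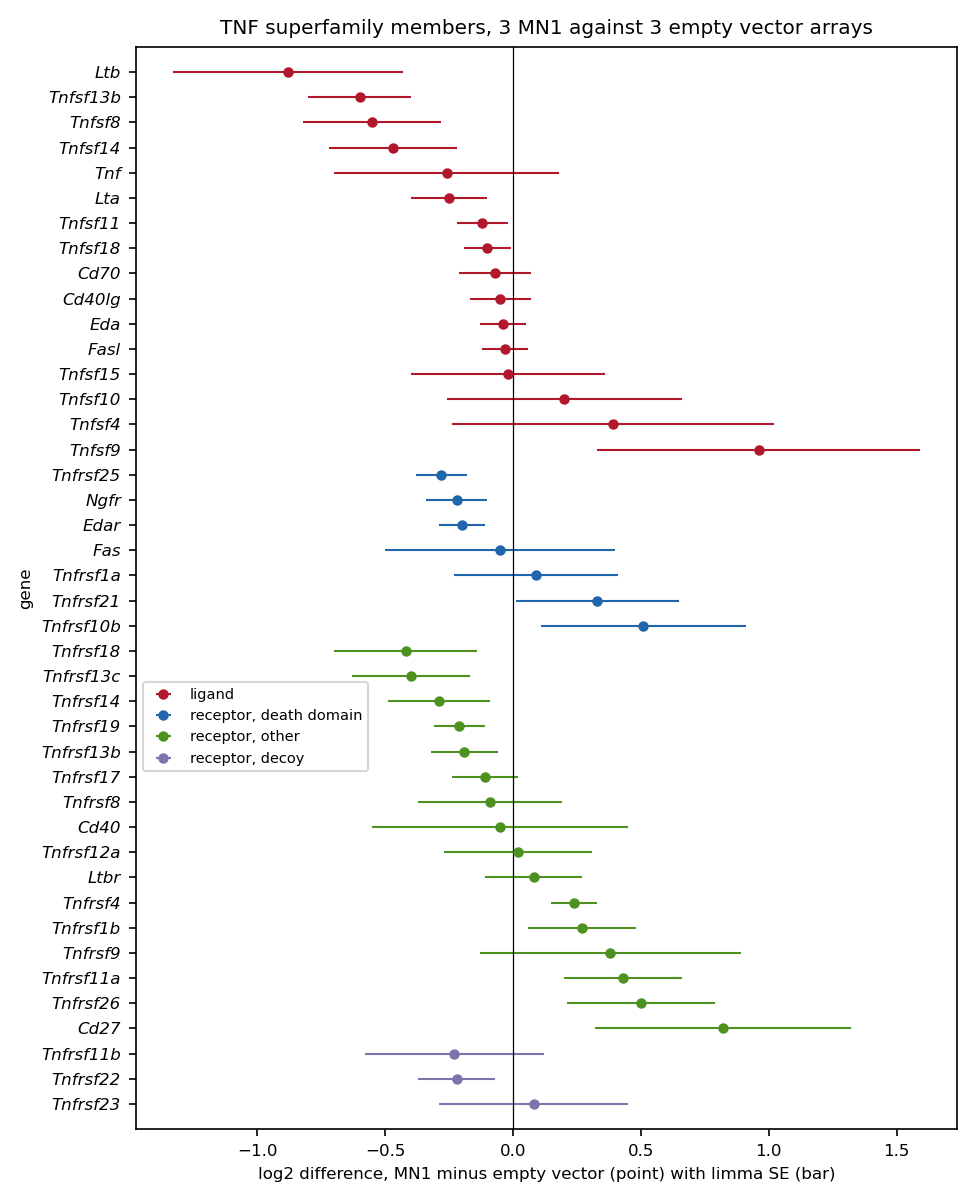
Log2 difference between MN1 and empty vector arrays (horizontal axis, points) with limma's SE (bars) for the 42 members, ordered within ligands, death domain receptors, other receptors and decoy receptors. Ligands ran from -0.88 (Ltb) to 0.96 (Tnfsf9), and 27 of the 42 points lie below 0.

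Mn1 itself was measured at 6.47, 6.62 and 6.08 on the MN1 arrays and 5.34, 5.41 and 4.80 on the empty vector arrays, so the groups did not overlap, in the direction the labels give. Its difference was 1.20 ± 0.21 (adjusted p = 0.584 in limma). Array medians over all probe sets ran from 5.82 to 6.01. The number of arrays limits the precision of all values here. Marker lists of other marrow cell types differed between arrays of the same group. The mean of 12 granulocyte markers was 9.39, 10.19 and 9.31 with MN1 and 11.12, 12.24 and 8.73 with the empty vector, and the third empty vector array was the lowest of all 6. The mean of 10 monocyte and macrophage markers was 11.21, 10.44 and 10.82 with MN1 and 10.16, 9.66 and 10.30 with the empty vector, where all MN1 arrays were higher. The mean of 9 B-lineage markers was 6.62, 5.70 and 7.04 with MN1 and 5.93, 5.53 and 7.29 with the empty vector, highest on the third arrays of both groups. The mean of 9 T and NK cell markers was 5.62, 5.88 and 5.76 with MN1 and 5.72, 5.97 and 6.13 with the empty vector. These T and NK values spanned less than those of the other 3 lists. The part of these lists in the results on the family was not tested.

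**Figure D2:**
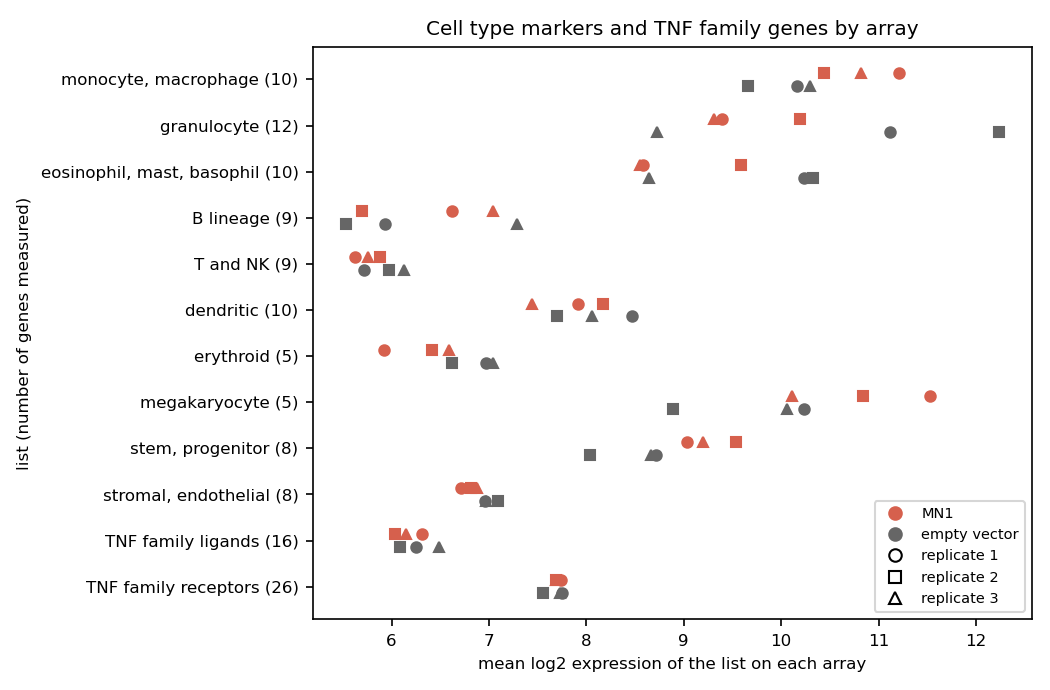
Mean log2 expression of each list of cell type markers, and of the TNF family ligands and receptors, on each array (horizontal axis), with MN1 in red and the empty vector in grey and the replicate number as the marker shape. Granulocyte markers spread from 8.73 to 12.24 over the 6 arrays, the mean of the family's ligands from 6.03 to 6.49 and that of its receptors, which differed in both directions, from 7.55 to 7.75. Levels are to be compared within a row only.

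The TNF and lymphotoxin ligands were all lower on average with MN1, none past the adjusted test. Lymphotoxin beta (Ltb), which anchors lymphotoxin to the cell membrane, was measured at 7.66, 8.09 and 9.40 with MN1 and 9.28, 8.92 and 9.60 with the empty vector. The first and second MN1 arrays were the lowest of the 6, while the third lay among the empty vector arrays, so the groups overlapped. The difference of -0.88 ± 0.45 had an adjusted p of 0.594 in limma. Without the third MN1 array it was -1.39, and without the first it was -0.52.

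Lymphotoxin alpha (Lta), the soluble partner of Ltb, was measured at 5.0, 5.11 and 4.99 with MN1 and 5.11, 5.14 and 5.59 with the empty vector. The groups only just failed to meet, and the third empty vector array alone stood clearly above the rest. The difference was -0.25 ± 0.15, or -0.09 without that array, and the probe set was among the dimmest 40% on the array, below 5.29 on the log2 scale, where RMA pulls values together. Tnf, the main inflammatory cytokine of the family, was measured at 12.16, 10.73 and 10.60 with MN1 and 11.42, 11.02 and 11.82 with the empty vector. The MN1 arrays held both the highest and the lowest values of Tnf, and its difference of -0.26 ± 0.44 was smaller than its SE.

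Among the receptors of these ligands, Tnfrsf1a, the death domain receptor for TNF found on most cells, differed by 0.09 ± 0.32. Tnfrsf1b, the TNF receptor of immune cells, differed by 0.27 ± 0.21, with a second empty vector array of 11.41 below the other 5 arrays at 12.06 to 12.29. Ltbr, the lymphotoxin beta receptor, differed by 0.08 ± 0.19. Tnfsf14 (LIGHT), a ligand of Ltbr and of Tnfrsf14 (HVEM), was lowest on the third MN1 array at 7.63, with the other 5 arrays between 8.27 and 8.76 and a difference of -0.47 ± 0.25. Tnfrsf14 itself differed by -0.29 ± 0.20. All of these genes had overlapping groups.

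BAFF (Tnfsf13b), the survival factor of mature B cells that myeloid cells secrete, had the smallest adjusted p of the ligands. It was measured at 5.79, 5.91 and 5.72 with MN1 and 6.59, 6.66 and 5.97 with the empty vector. The MN1 arrays lay all below the empty vector arrays, with the third empty vector array close to the MN1 values and the other pair well above. The difference was -0.60 ± 0.20 (adjusted p = 0.584 in limma), equal to a 1.52-fold lower level with MN1. Without the second empty vector array it was -0.48, and without the third it was -0.82. BAFF had an unadjusted p under 0.05 in limma, but not in 3 of 13 alternative fits. The empty vector arrays with the higher BAFF values were also those with the higher granulocyte marker means, 11.12 and 12.24 against 8.73 on the third. The mean of 10 eosinophil, mast cell and basophil markers was 8.58, 9.59 and 8.55 with MN1 and 10.23, 10.33 and 8.64 with the empty vector, also highest on those arrays. The part of both lists in the BAFF values was not tested.

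The BAFF receptors differed less. Tnfrsf13c (BAFF receptor), which carries the B-cell survival signal, was highest on the third empty vector array at 8.05, with the other arrays between 7.02 and 7.51, and differed by -0.40 ± 0.23. Tnfrsf13b (TACI), which also binds APRIL, differed by -0.19 ± 0.13, and Tnfrsf17 (BCMA), the receptor of plasma cells, by -0.11 ± 0.13. All 3 receptors had overlapping groups, and Tnfrsf17 was among the dim probe sets.

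Of the 7 receptors with a death domain, 3 were higher and 4 lower with MN1, with a median difference of -0.05. Tnfrsf25 (DR3), the receptor of the T-cell costimulator TL1A, was measured at 5.46, 5.66 and 5.49 with MN1 and 5.83, 5.87 and 5.75 with the empty vector. All MN1 arrays were lower, by a small amount that was nonetheless larger than the range of 0.20 within the MN1 group and 0.12 within the empty vector group. The difference was -0.28 ± 0.10 (adjusted p = 0.584 in limma). Tnfrsf25 had an unadjusted p under 0.05 in limma, but not in 7 of 13 alternative fits. Its ligand TL1A (Tnfsf15) spanned 5.35 to 6.93 on the MN1 arrays and differed by -0.02 ± 0.38.

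Tnfrsf10b (DR5), the mouse death receptor for TRAIL, was measured at 8.20, 7.89 and 8.34 with MN1 and 7.75, 6.76 and 8.41 with the empty vector. The second empty vector array was far below the others, and the third was the highest of all. The difference of 0.51 ± 0.40 came to 0.06 without the second empty vector array and to 0.89 without the third. TRAIL (Tnfsf10), a ligand that kills many tumour cells, spanned 6.32 to 7.67 with MN1 and 6.30 to 7.60 with the empty vector, and differed by 0.20 ± 0.46. The TRAIL decoys Tnfrsf22 and Tnfrsf23 differed by -0.22 ± 0.15 and 0.08 ± 0.37.

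Fas, the receptor by which cytotoxic cells trigger apoptosis, was measured at 7.22, 7.34 and 8.55 with MN1 and 7.48, 7.30 and 8.47 with the empty vector. The third array was well above the others in both groups, and the group difference was -0.05 ± 0.45. Its ligand Fasl, made by T and NK cells, was dim, at 4.44 to 4.56 on all 6 arrays, and differed by -0.03 ± 0.09. Tnfrsf21 (DR6) differed by 0.33 ± 0.32. Tnfrsf26, a mouse receptor encoded near Tnfrsf22 and Tnfrsf23, differed by 0.50 ± 0.29, just short of the 0.5 used to choose members for full description. The first MN1 array was at 10.29, with the other arrays between 8.93 and 9.34.

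RANK (Tnfrsf11a), the receptor that drives osteoclast formation from myeloid precursors, was measured at 7.70, 6.97 and 6.88 with MN1 and 6.77, 6.88 and 6.62 with the empty vector. The MN1 arrays lay all above the empty vector arrays, but the third MN1 and second empty vector arrays were equal to 2 decimals and the first MN1 array stood apart. The difference of 0.43 ± 0.23 (adjusted p = 0.597 in limma) came to 0.17 without the first MN1 array. Its ligand RANKL (Tnfsf11) lay between 7.46 and 7.71 on all arrays and differed by -0.12 ± 0.10. The decoy for RANKL, osteoprotegerin (Tnfrsf11b), was at 6.16 on the third empty vector array and between 4.80 and 5.47 on the others, and differed by -0.23 ± 0.35.

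Among the costimulatory pairs, the 4-1BB ligand (Tnfsf9) had the widest range of any member, 2.70. It was measured at 8.58, 5.98 and 6.71 with MN1 and 5.88, 6.11 and 6.39 with the empty vector. The first MN1 array was far above the rest, and the second lay below 2 of the empty vector arrays. The difference of 0.96 ± 0.63 came to 0.21 without the first MN1 array and 1.51 without the second. The receptor 4-1BB (Tnfrsf9), which sustains activated T cells, was measured at 10.59, 10.57 and 10.48 with MN1 and 10.43, 8.96 and 11.13 with the empty vector. The MN1 arrays were within 0.11 of each other, between the low second and the high value of the third empty vector array. The difference of 0.38 ± 0.51 was -0.23 without the second empty vector array and 0.85 without the third.

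OX40 (Tnfrsf4), a receptor of activated T cells, was measured at 6.51, 6.48 and 6.56 with MN1 and 6.34, 6.28 and 6.21 with the empty vector. The groups did not overlap and each was tight, with ranges of 0.08 and 0.13. The difference was 0.24 ± 0.09 (adjusted p = 0.584 in limma), a 1.18-fold higher level with MN1. OX40 had an unadjusted p under 0.05 in limma, but not in 8 of 13 alternative fits. The OX40 ligand (Tnfsf4) was measured at 6.29, 5.27 and 6.66 with MN1 and 5.34, 4.72 and 6.98 with the empty vector. In both groups the second array was the lowest and the third the highest, and the groups overlapped. The difference of 0.39 ± 0.63 was -0.09 without the second empty vector array and 1.04 without the third.

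Cd27, a receptor of lymphocytes and of some blood progenitors, was measured at 6.32, 8.33 and 7.09 with MN1 and 6.70, 6.0 and 6.58 with the empty vector. The second and the third MN1 arrays were the highest, while the first lay among the empty vector arrays. The difference of 0.82 ± 0.50 came to 0.28 without the second MN1 array and 1.28 without the first. Stem and progenitor markers (8 genes) had a mean of 9.03, 9.54 and 9.20 with MN1 and 8.71, 8.04 and 8.66 with the empty vector, highest on the array with the highest Cd27 value, and their part in the Cd27 values was not tested. The CD27 ligand Cd70 was dim, between 4.48 and 4.91, and differed by -0.07 ± 0.14.

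The CD30 ligand (Tnfsf8) was measured at 4.90, 4.65 and 4.92 with MN1 and 5.56, 4.77 and 5.79 with the empty vector. The first and the third empty vector arrays were the highest, and the second lay within the MN1 range. The difference was -0.55 ± 0.27 (adjusted p = 0.594 in limma), -0.85 without the second empty vector array and -0.35 without the third, at a dim probe set. CD30 (Tnfrsf8) differed by -0.09 ± 0.28. GITR (Tnfrsf18), a receptor of regulatory T cells, was lowest on the first MN1 array at 7.54, with the other arrays between 8.33 and 8.72, and differed by -0.42 ± 0.28. Its ligand Tnfsf18 was dim, between 3.65 and 3.83. Cd40, through which T cells activate B cells and macrophages, was lowest on the third MN1 array at 6.26 against 7.02 to 8.01 on the others, and differed by -0.05 ± 0.50. The CD40 ligand (Cd40lg) was dim, between 3.74 and 4.08.

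Of the members known mainly from other tissues, Edar, the ectodysplasin receptor of skin appendages, was measured at 5.15, 5.12 and 5.01 with MN1 and 5.24, 5.30 and 5.34 with the empty vector. Tnfrsf19 (TROY) was measured at 5.04, 5.08 and 5.06 with MN1 and 5.12, 5.30 and 5.39 with the empty vector. In both genes the MN1 arrays lay just below the empty vector arrays, at probe sets among the dimmest 40%. The differences were -0.20 ± 0.09 for Edar and -0.21 ± 0.10 for Tnfrsf19. The Edar ligand Eda differed by -0.04 ± 0.09, and Ngfr, the nerve growth factor receptor, by -0.22 ± 0.12. Tnfrsf12a, the receptor of TWEAK, differed by 0.02 ± 0.29, with a first MN1 array of 8.77 above the 7.55 to 8.14 of the others.

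**Figure D3:**
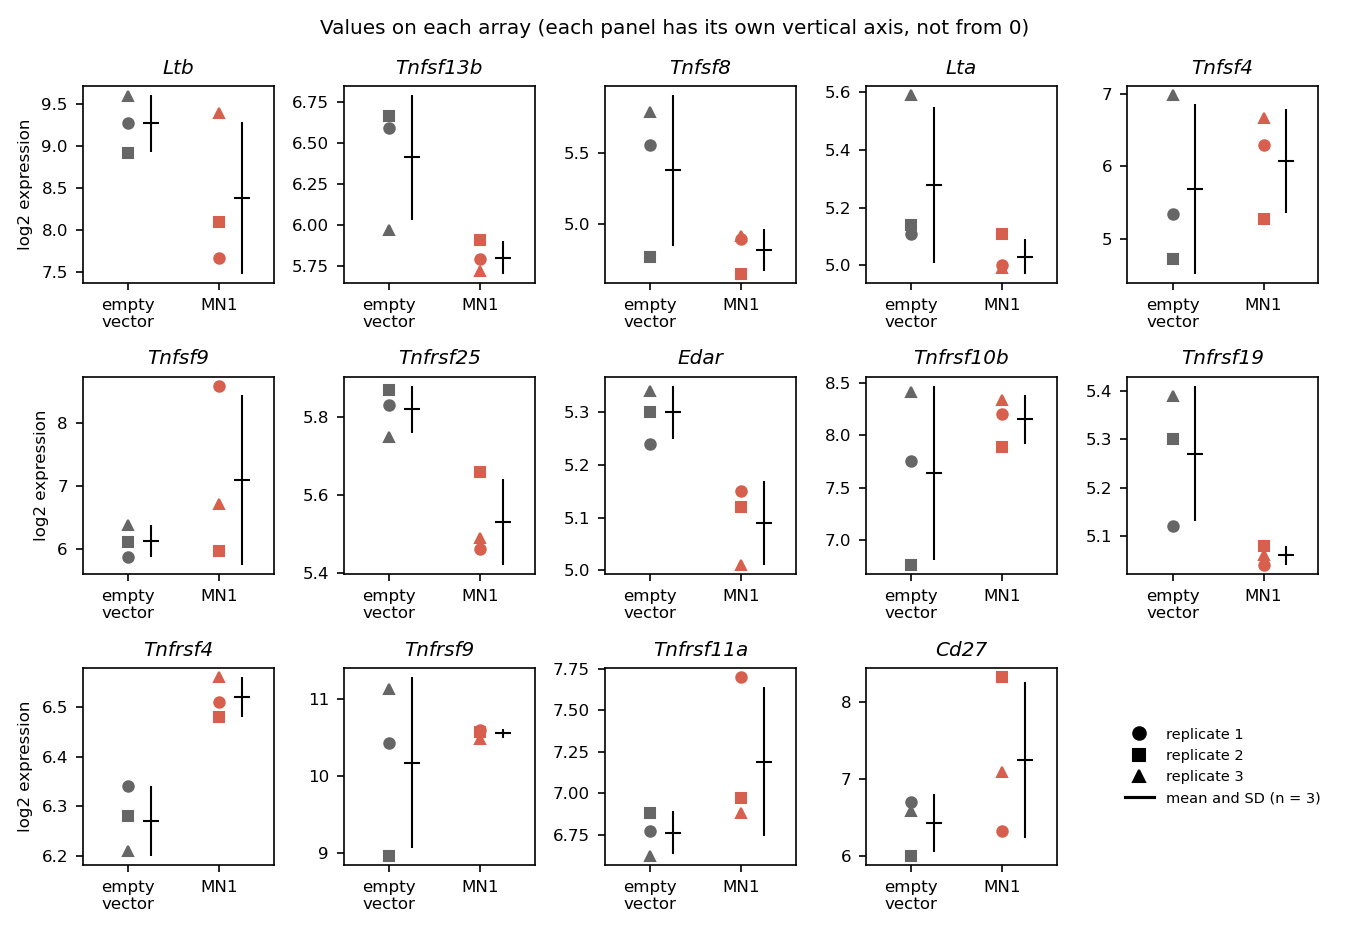
Log2 expression of the 14 members described in full, on each array (vertical axes, 1 scale per panel and not starting at 0), with the replicate number as the marker shape and the mean and SD of each group (n = 3) beside the points. The MN1 points of Tnfsf13b, Tnfrsf25, Lta, Edar and Tnfrsf19 lie all below the empty vector points. Those of Tnfrsf4 and Tnfrsf11a lie all above them. Tnfsf9, Cd27, Tnfsf4 and Tnfrsf9 have the widest ranges, 2.17 to 2.70.

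Ligands and receptors are set side by side by their counts. Of the 16 ligands, 3 had a difference above 0 (Tnfsf9, Tnfsf4 and Tnfsf10) and 13 below, with a median of -0.08, where 43.3% of all genes were above 0. After median-centring of the arrays, 5 ligands were above 0, where 50.1% of all genes were. Of the ligands, 7 were among the dimmest 40% of probe sets, and the 9 left without them had 3 above 0, 6 below and a median of -0.12. Over all genes left in that fit, 52.8% were above 0. Of the 26 receptors, 12 were above 0 and 14 below, with a median of -0.05. Their median turned to 0.02 when the dimmest 40% of probe sets were left out. The all-gene median moved alike, from -0.03 to 0.02. The ligands' mean was 6.31, 6.03 and 6.15 on the MN1 arrays and 6.25, 6.09 and 6.49 on the empty vector arrays, so the groups overlapped. The 3 decoy receptors had 1 difference above 0 and a median of -0.22.

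The highest and lowest values of the members were not spread evenly over the arrays. The third empty vector array held the highest value of the 6 for 14 of the 42 members (33.3%), where it was highest for 14% of all genes. The third MN1 array held the lowest value for 12 members (28.6%), against 21.5% of all genes, and had the lowest array median, 5.82. The first MN1 array was lowest for 9 members (21.4%), against 25.2% of all genes. The second empty vector array was highest for 9 members (21.4%), against 25.2% of all genes. The third empty vector array was also the one with the lowest granulocyte and the highest B-lineage marker means, and their part in this pattern was not tested.

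**Figure D4:**
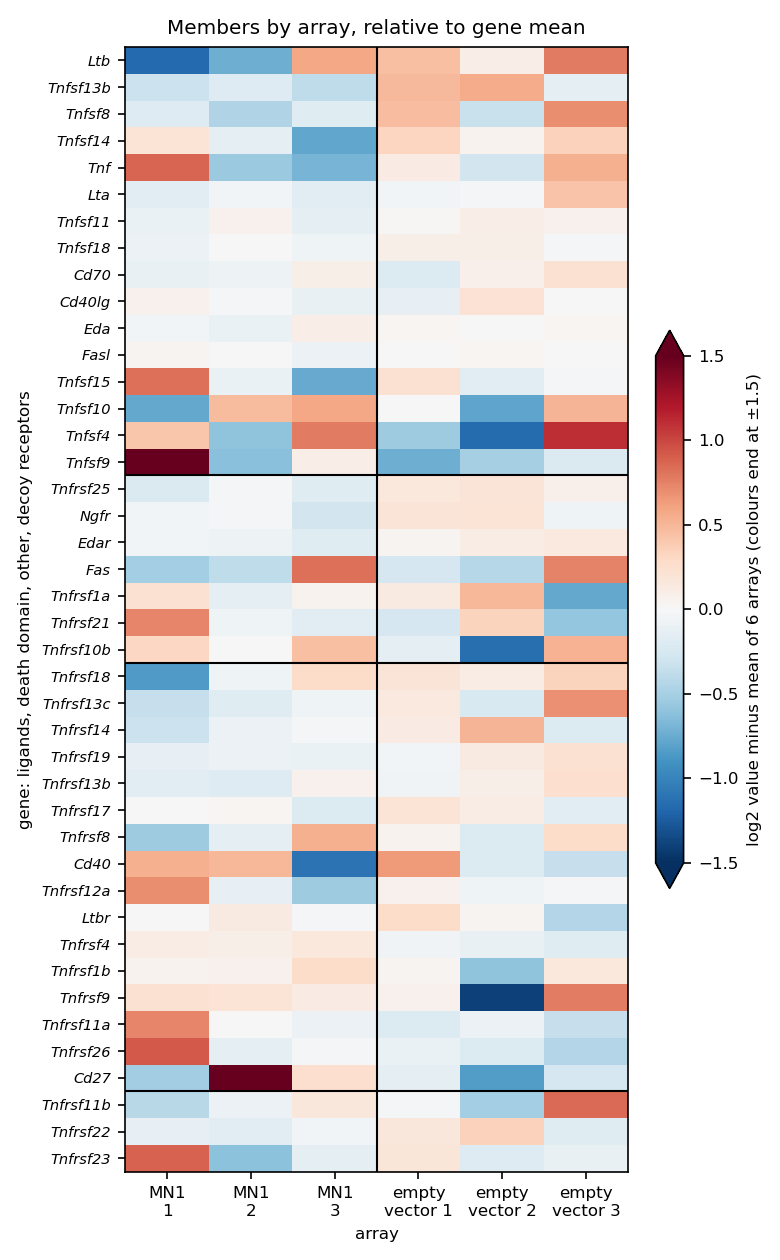
Log2 value of each member on each array minus the gene's mean over the 6 arrays (colour, ending at ±1.5), with MN1 arrays left and empty vector arrays right of the vertical line. The third empty vector array is the highest for 14 of the 42 members, and the groups do not overlap in 7 of all 42 members (16.7%, against 16.0% of all genes).

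Downstream of the receptors, 26 of 28 listed adaptors and death-signalling genes were measured, with 20 above 0, 6 below and a median difference of 0.10. That was 76.9% above 0, against 43.3% of all genes. None of these genes was dim, and without the dim probe sets 52.8% of all genes were above 0, with a median of 0.02. Quantile normalisation left 17 adaptors above 0 with a median of 0.01, where 40.4% of all genes were above 0. Leaving out the second empty vector array left 15 adaptors above 0 with a median of 0.03, where 45.4% of all genes were. At an unadjusted p under 0.05, 0 adaptors were higher and 1 was lower (3.85%), where 8.4% of all genes were called in either direction. The split was 0 and 0 after median-centring and with the intensity trend and robust prior. It was also 0 and 0 without the third MN1 array or without the second or the third empty vector array. It was 1 higher and 2 lower without the first MN1 array, 2 and 0 without the second, and 1 and 1 without the first empty vector array. Of all 19938 genes, these alternative fits called 508 to 1044 higher and 398 to 1037 lower. The gene called on all 6 arrays was Map3k14 (NIK), the kinase that starts non-canonical NF-kappa-B signalling after BAFF receptor, CD40 or Ltbr engagement. It was measured at 7.10, 7.04 and 7.03 with MN1 and 7.21, 7.47 and 7.42 with the empty vector, all MN1 arrays lower, with a difference of -0.31 ± 0.10 (adjusted p = 0.584 in limma). Casp8, the initiator caspase of death receptors, differed by 0.28 ± 0.14, and Rnf31, the catalytic subunit of the linear ubiquitin ligase, by 0.28 ± 0.16.

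Of 13 listed NF-kappa-B subunits and regulators, 11 were measured, with 4 above 0, 7 below, a median of -0.04 and 0 at an unadjusted p under 0.05 in limma. The median turned to 0.01 without the first empty vector array, and 2 were lower at that threshold without the second. Without the second, 398 of all 19938 genes were lower at that threshold. Rel differed by -0.34 ± 0.34, Nfkb2 by -0.14 ± 0.18 and Ikbkg (NEMO) by 0.19 ± 0.11. All 7 listed genes that carry out, aid or limit the shedding of ligands and receptors were measured, 4 above 0 and 3 below. At an unadjusted p under 0.05 in limma 0 of them were called. Without the first MN1 array 1 was higher and 1 lower, and without the third 1 was higher. Without the second empty vector array 1 was lower. Of all 19938 genes, these fits called 508 to 844 higher and 398 to 488 lower. The largest difference of the list was for Timp3, 1.21 ± 0.85, with overlapping groups. Timp3 is a tissue inhibitor of metalloproteinases, so the counts of this list state no direction of shedding. Timp3 spanned 9.55 to 11.96 with MN1 and 8.23 to 10.82 with the empty vector. Adam17, the protease that releases TNF, differed by 0.24 ± 0.14, Rhbdf1, one of its trafficking partners, by 0.23 ± 0.13, and Furin, which cleaves BAFF, by -0.22 ± 0.12.

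Of 20 listed genes known to respond to TNF, 19 were measured, with 8 above 0, 11 below and a median of -0.15, which turned to 0.10 without the third empty vector array. At an unadjusted p under 0.05, 1 was higher and 2 were lower with MN1, each with an adjusted p of 0.584 in limma. These calls made up 15.8% of the list, where 8.4% of all genes were called. No gene of the list was called higher with array weights, without the second or the third MN1 array, or without the third empty vector array. Without the first MN1 array the 1 higher call was not Ccl2. Of all 19938 genes, these fits called 829 to 1044 higher. The cytokine Il6 was measured at 8.77, 9.02 and 9.99 with MN1 and 10.31, 10.14 and 10.56 with the empty vector, all MN1 arrays lower, a difference of -1.08 ± 0.32. The gelatinase Mmp9, abundant in granulocytes, was measured at 8.52, 9.21 and 9.25 with MN1 and 9.74, 10.58 and 9.58 with the empty vector, also without overlap, a difference of -0.97 ± 0.32. The monocyte chemokine Ccl2 was measured at 11.01, 10.31 and 10.46 with MN1 and 10.07, 7.92 and 9.64 with the empty vector, all MN1 arrays higher, a difference of 1.38 ± 0.55. The second empty vector array was far below the others, and without it the difference was 0.74. These genes thus differed in both directions, and the granulocyte and macrophage marker means given above differed between the same arrays, whose part was not tested.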

How the data were processed

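The authors deposited 1 table of log2 expression values for 35557 probe sets on 6 arrays, made by RMA per the submitters' processing notes, from 200 ng of total RNA per sample per the labels. The genome build is not given in the sources used here, and no RMA version was stated in them. There were no detection calls. Probe sets were named from the platform annotation of 2016: 21789 had 1 symbol, 1621 several and 12147 none. For each gene the probe set with the highest mean was kept. Groups were compared with limma 3.58.1 in R 4.3.3, without a block, two-sided, with Benjamini-Hochberg adjustment over 19938 genes and a threshold of 0.05, after the script had been tested on simulated data. The p-values measure the spread between these samples.

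Members were given with every array's value where the unadjusted p was under 0.05, the groups did not overlap or the difference was at least 0.5, together with the 4 widest-ranging members. Tnf and Fas were added outside this rule, after their values were seen. From each pathway list, up to 3 genes with the smallest p were named, and Timp3 was added after its values were seen. The members and lists were chosen with earlier results of these data known.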

Additional observations from a re-analysis of the deposited data

How the results depend on the processing

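Of all genes, 0 passed an adjusted p of 0.05 in limma under any of the 13 alternatives. Ligands above 0 numbered 3, 5 after median-centring and 2 to 5 when single arrays were left out. Over all genes 43.3% were above 0, 50.1% after centring and 42 to 45.9% with an array left out. Members with all MN1 arrays above the empty vector arrays numbered 2, and 2 to 5 with an array left out. Those all below numbered 5, 2 without the dimmest 40% of probe sets, 3 after centring and 6 to 10 with an array left out, where fewer arrays make separation easier. Members higher at an unadjusted p under 0.05 in limma numbered 1 (Tnfrsf4). They numbered 0 without the dim probe sets, with the intensity trend and robust prior, or with the replicate block. Tnfrsf4 itself was not dim and stayed at 0.24 in the fit without the dim probe sets. With an array left out the higher members numbered 0 to 1. The 1 was Cd27 without the first MN1 array, Tnfsf9 without the second and Tnfrsf10b without the third empty vector array. It was Tnfrsf4 only without the first empty vector array. Over all genes, higher calls numbered 832, 662 among the genes left without the dim probe sets and 673 with the intensity trend and robust prior. They numbered 1140 with the replicate block and 508 to 1044 with an array left out. Lower members numbered 2 (Tnfsf13b and Tnfrsf25), with 1 without the dim probe sets, 1 after centring and 1 after quantile normalisation. Tnfrsf25 was not dim and stayed at -0.28 in the fit without the dim probe sets. The lower members numbered 4 with the replicate block, where Ltb and Tnfsf8 were added, and 1 to 4 with an array left out. Over all genes, lower calls numbered 843, 369 among the genes left without the dim probe sets and 400 after centring. They numbered 721 after quantile normalisation, 840 with the replicate block and 398 to 1037 with an array left out. Without the first empty vector array the 1 lower call among the members was Tnfrsf19, and neither Tnfsf13b nor Tnfrsf25 was called. The cause of these changes was not tested. Same-numbered arrays deviated together with correlations of 0.13, 0.07 and 0.32, and the second MN1 array correlated best with the first empty vector array (0.44), so the numbers were not taken as a pairing. Tnfrsf9 turned to -0.23 and Tnfsf4 to -0.09 without the second empty vector array (ranges -0.23 to 0.85 and -0.09 to 1.04). Of 178 values for named members under alternatives, 150 kept direction and side of the threshold, 18 became weaker, 8 stronger and 2 reversed. Most named members were not called on all 6 arrays, so for them keeping the side meant staying uncalled. The 18 weaker values all came from the 3 called members, Tnfrsf4 (8 of 13), Tnfrsf25 (7 of 13) and Tnfsf13b (3 of 13). Signal at the dimmest probe sets limits Lta, Edar, Tnfrsf19 and Tnfsf8. Tnfrsf25 was above the dim limit of 5.29 but below the median of each array, as were the MN1 values of BAFF.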

Other observations

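Eda2r and Relt, receptors of the family, lay outside the naming rule and were chosen here after their values were seen. Eda2r, a receptor for an ectodysplasin isoform, was measured at 7.87, 6.24 and 7.10 with MN1 and 5.87, 4.84 and 7.12 with the empty vector, with overlapping groups and a difference of 1.13 ± 0.65 (adjusted p = 0.613 in limma). Relt was measured at 8.03, 8.28 and 8.28 with MN1 and 9.02, 8.85 and 7.97 with the empty vector, a difference of -0.42 ± 0.28, and the third empty vector array was the lowest of the 6. The probe set shared by Tnfsfm13, Tnfsf13 (APRIL) and Tnfsf12 (TWEAK) had means of 7.98 ± 0.50 on the MN1 and 7.71 ± 0.37 on the control arrays (SD, n = 3), and it cannot be assigned to 1 of these genes.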
